A study of Mus musculus with 6 samples.

Results

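Genes of the NRF2 antioxidant response and of glutathione metabolism were followed in TuBo cells that do or do not overexpress p140Cap, the adaptor protein encoded by Srcin1. The set holds 40 genes, chosen by symbol from the 21960 genes of the deposited counts, and each symbol matched 1 gene. TuBo, a model of HER2+ breast cancer, is a line that was grown from a mammary carcinoma of the BALB/c-MMTV-NeuT strain, whose MMTV promoter drives an activated rat HER2 oncogene. RNA-Seq was performed on 3 libraries of mock cells, labelled wt, and 3 libraries of p140Cap cells, which carry a p140Cap cDNA in the retroviral vector pBabe-puro, were selected with puromycin and were assembled by pooling clones grown from single cells. The Balb-NeuT background is shared by both groups. The deposited labels speak of cell lines in the sample fields and of mice in the design text, and the samples were read here as cell lines.

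NRF2, encoded by Nfe2l2, is a transcription factor that is held in the cytoplasm and sent for degradation by KEAP1 until oxidants or electrophiles modify KEAP1. NRF2 then enters the nucleus, pairs with small MAF proteins and binds antioxidant response elements (AREs) of genes that detoxify quinones, make glutathione and reduce oxidized proteins. Glutathione and thioredoxin are the main thiol reductants of the cell, glutathione peroxidases and peroxiredoxins use them to remove peroxides, glutathione transferases join glutathione to electrophiles, and metallothioneins bind metals and scavenge radicals.

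To show which members carry the letters of an ARE near their start, promoter windows of 300 bases (RefSeq, GRCm38.p6, from 250 bases before to 50 after each start) were searched on both strands for the ARE core TGACNNNGC. The windows covered 34 of the 40 members, all but Hmox1, Gclc, Gsr, Prdx6, Sod3 and Gsta4, which were not searched. The letters were found for 9 of these 34 genes (26.5%), beside 14.0% of all 27025 genes with a window. Of the 8 members whose match lies before the start, 4 had a printed window outside the annotated transcripts of the gene itself (GENCODE, no 15 bases in common), and these are shown 5′ to 3′ along the strand of the gene, with the match, on either strand, in capitals.
Gclm (chr3:122245403-122245451, plus strand): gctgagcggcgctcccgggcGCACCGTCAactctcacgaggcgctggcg
Txnrd1 (chr10:82859094-82859142, plus strand): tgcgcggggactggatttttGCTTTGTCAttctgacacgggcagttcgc
Prdx1 (chr4:116685446-116685494, plus strand): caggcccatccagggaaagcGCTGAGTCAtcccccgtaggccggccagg
Nfe2l2 (chr2:75704875-75704913, minus strand): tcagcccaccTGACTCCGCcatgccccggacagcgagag
The other members with a match were Srxn1, Sod1, Gstm5, Mgst1 and Mt2, that of Srxn1 lying behind the start. The window of Txnrd1 belongs to an internal start of the gene. The matches of Prdx1 and Mt2 also hold the letters of an AP-1 site, TGACTCA. A match is a description of these windows, and AREs farther from the start were not searched.

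Libraries differed in depth, with 33058719 to 75506562 reads on genes in mock cells and 13770385 to 15364850 in p140Cap cells, so that low transcripts were measured less precisely in p140Cap cells. Read counts were normalized with TMM factors to CPM, read counts scaled to a common library size, and the 11800 genes with enough reads entered the quasi-likelihood test of edgeR, with p-values adjusted over all of them by Benjamini-Hochberg. A gene is called higher or lower at an adjusted p under 0.05. Srcin1, the check of the labels, was at 12.8 to 16.6 CPM in mock and at 2244 to 2519 CPM in p140Cap libraries. The epithelial markers Epcam, Cdh1, Krt8, Krt18, Krt19, Cldn3 and Cldn7 summed to between 5111 and 5484 CPM in mock and between 5969 and 6139 CPM in p140Cap libraries. None of the 7 was at 0 in every library, but Krt19 had only 6 reads over the mock and 9 over the p140Cap libraries. Epcam, Cdh1 and Krt18 were called higher, Cldn7 was called lower, and Krt8 and Cldn3 were not called. Of 8 fibroblast markers 5 were at 0 in every library, and the sum of the list was 9.97 to 10.5 CPM in mock and 11.3 to 14.1 CPM in p140Cap libraries. Of 8 leukocyte markers Ptprc, Adgre1 and Lyz2 were at 0 in every library, and the sum of 99.8 to 107 CPM in mock and 245 to 257 CPM in p140Cap libraries fell to at most 2.34 and 4.09 CPM without Cd14. Of 5 endothelial markers Kdr and Cldn5 were at 0, and the list summed to less than 1 CPM in every library.

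Of the 40 members, 37 had enough reads for the test, and 30 of these (81.1%) were called, beside 71.1% of all genes tested. In p140Cap cells 14 members were higher, where 35.2% of all genes were, and 16 were lower, where 35.9% of all genes were. The set thus moved in both directions. Its median log2 fold change was -0.05 and that of all genes tested was 0.00, and its median absolute log2 fold change was 0.37 beside 0.32 for all genes tested. Changes of at least 0.5 log2 units were called for 11 members (29.7%), against 30.8% of all genes, and changes of at least 1 unit for 3 members (8.11%), against 9.97%. The libraries of the groups did not overlap for 29 of the 37 members, beside 73.4% of all genes tested. These shares of the members lie near those of all genes tested, so the description below is of single genes and groups of genes and not of the set as a whole. Since whole cultures were sequenced, fewer cells that express a gene and less of its RNA per cell cannot be told apart.

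**Figure D1:**
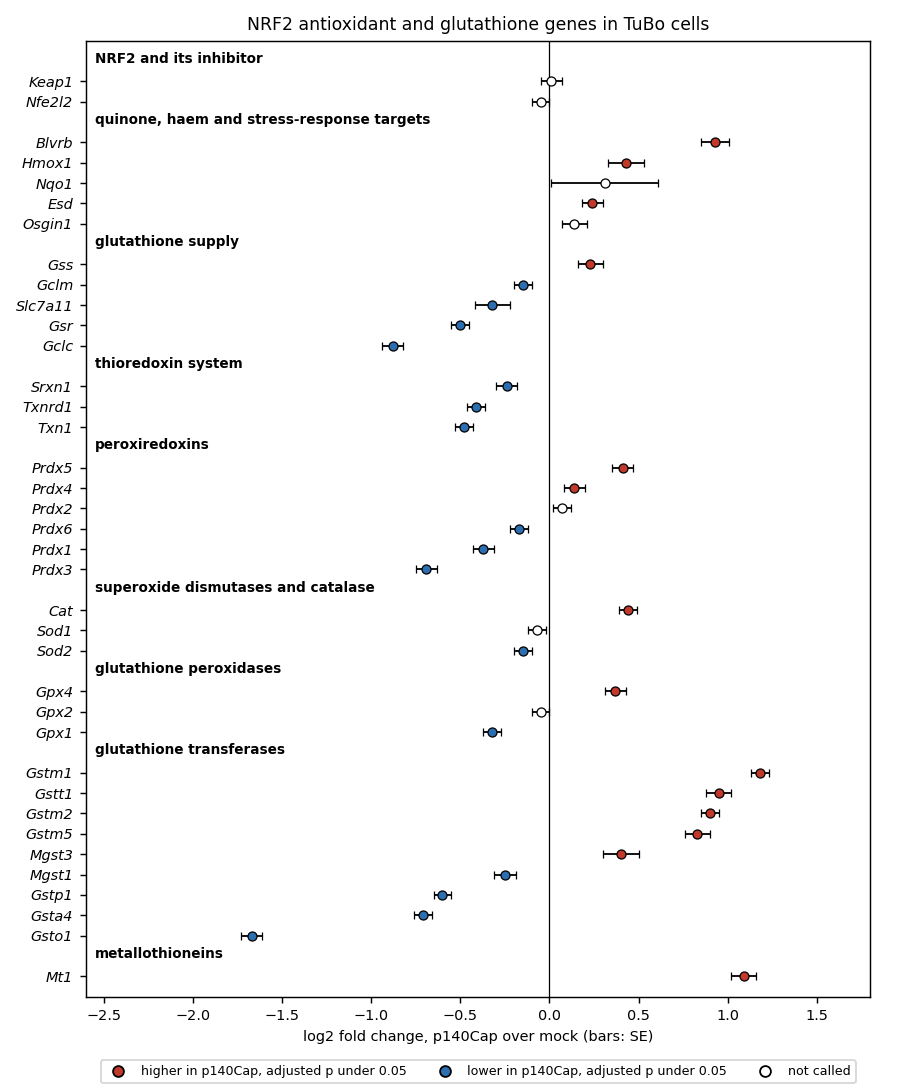
Log2 fold change of the 37 tested members (horizontal axis, p140Cap over mock, bars are SE), grouped by role, with filled points for genes at an adjusted p under 0.05 in edgeR's test. Glutathione transferases reach from -1.67 for Gsto1 to 1.18 for Gstm1, while Nfe2l2 and Keap1 lie at -0.05 and 0.01.

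Neither NRF2 nor its inhibitor was called at the RNA level. Nfe2l2 (ENSMUSG00000015839; chromosome 2 of GRCm38.p6, 75675513 to 75704663, minus strand) was at 113, 120 and 108 CPM in the mock and at 112, 112 and 105 CPM in the p140Cap libraries, and its log2 fold change of -0.05 (SE 0.05) was not called (adjusted p = 0.39, edgeR). Keap1 (ENSMUSG00000003308; chromosome 9, 21229730 to 21239332, minus strand) was at 92.3, 88.7 and 99.0 CPM in the mock and at 92.4, 100 and 88.1 CPM in the p140Cap libraries, a log2 difference of 0.01 (SE 0.06, adjusted p = 0.939, edgeR). For both genes the libraries of the groups overlapped. NRF2 is regulated largely through the stability of the protein, which RNA counts do not measure.

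Among the genes NRF2 is best known for, Nqo1, the quinone reductase often used to read NRF2 activity, was hardly detected in TuBo cells. It had 43, 27 and 16 reads in the mock and 12, 10 and 9 reads in the p140Cap libraries, or 0.562, 0.679 and 0.480 CPM and 0.791, 0.681 and 0.661 CPM. The groups overlapped, and the log2 fold change of 0.31 carried an SE of 0.30 (adjusted p = 0.371, edgeR), so no change in Nqo1 was called. The pooled ratio of mock to p140Cap cells was 0.806, with an exact 95% interval from 0.529 to 1.26 for counting error. Hmox1, which encodes the heme-degrading heme oxygenase-1, rose from 5.58, 5.20 and 6.07 CPM in the mock to 7.32, 7.70 and 7.64 CPM in the p140Cap libraries. Every p140Cap library was above every mock library, which amounts to 0.43 on the log2 scale (SE 0.10, adjusted p = 0.00137, edgeR). Blvra, a biliverdin reductase gene outside the set, was at 38.9 ± 1.12 CPM in mock and 41.1 ± 4.23 CPM in p140Cap cells (SD, n = 3 each). Blvra was not called (adjusted p = 0.302, edgeR). Blvrb (ENSMUSG00000040466; chromosome 7, 27447978 to 27465981, plus strand), also named a biliverdin reductase, had the largest change of this group of members. Its CPM of 16.5, 16.6 and 19.2 in the mock and 31.5, 32.4 and 35.5 in the p140Cap libraries do not overlap, and its level was 1.91 times that of mock cells (log2 fold change 0.93, SE 0.08, adjusted p = 1.1e-08, edgeR). Esd, which hydrolyses S-formylglutathione in the removal of formaldehyde, also rose, by a log2 fold change of 0.24 (SE 0.06). Osgin1, a stress-induced growth inhibitor, was at 33.2 ± 2.58 CPM in mock and 36.5 ± 1.59 CPM in p140Cap cells (SD, n = 3) and was not called (adjusted p = 0.0666, edgeR). Its adjusted p lay between 0.0108, without mock replicate 3, and 0.234 over the alternatives tried.

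Of the 5 members that supply glutathione, 4 were called lower and 1 higher in p140Cap cells. Over all genes tested 35.9% were lower and 35.2% higher. The lower calls of Gclm and Slc7a11 did not hold under every alternative, as given below. Gclc (ENSMUSG00000032350; chromosome 9, 77754535 to 77794489, plus strand), the catalytic subunit of glutamate-cysteine ligase and thus of the rate-limiting step, was at 45.0, 44.5 and 42.0 CPM in the mock and at 24.8, 24.0 and 22.8 CPM in the p140Cap libraries. The highest p140Cap library was far below the lowest mock library, and the level fell to 0.545 of that in mock cells (log2 fold change -0.88, SE 0.06, adjusted p = 2.03e-09, edgeR). Gclm (ENSMUSG00000028124; chromosome 3, 122245487 to 122267215, plus strand), the modifier subunit of the same enzyme, moved little, from 78.6, 87.9 and 80.7 CPM to 76.3, 74.0 and 71.8 CPM. The groups of Gclm were close but did not overlap, and its log2 fold change of -0.15 (SE 0.05, adjusted p = 0.0202, edgeR) was no longer called without mock replicate 2 (adjusted p = 0.105) or without p140Cap replicate 3 (adjusted p = 0.081), while its adjusted p over all 14 alternatives lay between 0.00356 and 0.105.

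The balance of both subunits was compared within each library, which needs no scaling of library sizes. The log2 ratio of Gclc to Gclm reads, with 0.5 reads added to each, was -0.80, -0.98 and -0.94 in the mock and -1.62, -1.62 and -1.66 in the p140Cap libraries. The means differed by -0.72 log2 units, with SDs of 0.09 and 0.02 (n = 3 each), and the groups did not overlap. The exact two-sided permutation test gave p = 0.1, which is the smallest p that 3 against 3 libraries can give.

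Slc7a11, the cystine importer that feeds glutathione synthesis, was at 10.6, 10.2 and 9.49 CPM in the mock and at 7.25, 7.90 and 9.25 CPM in the p140Cap libraries. The groups were separated by a narrow gap, and p140Cap replicate 3 lay next to the mock libraries. On the log2 scale the change was -0.32 (SE 0.10, adjusted p = 0.00838, edgeR). It was not called without p140Cap replicate 1 (adjusted p = 0.0627) or with all libraries thinned to the same total (adjusted p = 0.0522), and its adjusted p otherwise went down to 0.00126. Gsr, which regenerates reduced glutathione with NADPH, fell from 80.6 ± 1.69 to 57.1 ± 1.53 CPM (SD, n = 3 libraries each; log2 fold change -0.50, adjusted p = 1.48e-07, edgeR). Before rounding, the size of this change was under 0.5 log2 units, so Gsr is not among the 11 members counted at that size. Gss, glutathione synthetase, was the member that moved the other way, from 19.4 ± 0.602 to 22.7 ± 1.06 CPM (SD, n = 3 each; log2 fold change 0.23, adjusted p = 0.00647, edgeR).

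The 3 members of the thioredoxin system were all called lower in p140Cap cells, where 35.9% of all genes tested were. Txn1, thioredoxin itself, was at 344, 359 and 374 CPM in the mock and at 255, 242 and 272 CPM in the p140Cap libraries. Txnrd1, the selenoprotein that reduces it, was at 196, 198 and 188 CPM and at 148, 149 and 142 CPM. In both genes every p140Cap library lay below every mock library, with log2 fold changes of -0.48 and -0.41 (SE 0.05 each, adjusted p = 4.69e-07 and 7.84e-07, edgeR). Srxn1, sulfiredoxin, which repairs over-oxidized peroxiredoxins, changed less, from 36.3, 38.5 and 38.7 CPM to 31.4, 33.3 and 31.1 CPM (log2 fold change -0.24, SE 0.06, adjusted p = 0.00153, edgeR), again without overlap.

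Among the 6 peroxiredoxins, 3 were lower, 2 were higher and 1 was not called, where 35.9% of all genes tested were lower and 35.2% higher. Prdx3 (ENSMUSG00000024997; chromosome 19, 60864066 to 60874538, minus strand), the mitochondrial peroxiredoxin, changed most, from 126, 135 and 126 CPM in the mock to 85.4, 71.5 and 83.2 CPM in the p140Cap libraries, or -0.69 on the log2 scale (SE 0.06, adjusted p = 3.62e-08, edgeR). Prdx1, a cytosolic member, fell from 649 ± 35.4 to 502 ± 40.9 CPM (SD, n = 3 each), and Prdx6 fell from 74.4 ± 3.05 to 65.9 ± 3.06 CPM. Prdx5 rose instead, from 98.6 ± 8.72 to 130 ± 0.657 CPM (log2 fold change 0.41, adjusted p = 8.8e-06, edgeR). Prdx2, at 373 ± 7.24 and 393 ± 18.0 CPM, was not called (adjusted p = 0.182, edgeR). Prdx4, the secretory pathway member, stood at the threshold with an adjusted p of 0.049 (log2 fold change 0.14, edgeR), its groups overlapped, and 12 of the 14 alternatives did not call it. Without mock replicate 1, mock replicate 3, p140Cap replicate 1 or p140Cap replicate 3 its adjusted p was 0.194, 0.071, 0.177 or 0.266, and the range over all alternatives was 0.00269 to 0.266.

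Of the enzymes that act on superoxide and hydrogen peroxide directly, Cat, the peroxisomal catalase, rose from 115 ± 2.22 to 155 ± 8.90 CPM (SD, n = 3 each; log2 fold change 0.44, SE 0.05, adjusted p = 7.63e-07, edgeR). Sod2, the mitochondrial dismutase, was lower, at 94.8 ± 1.22 and 85.5 ± 3.82 CPM (log2 fold change -0.15, adjusted p = 0.0127, edgeR), but was not called without p140Cap replicate 2 (adjusted p = 0.0573, the highest of a range that starts at 0.0034). Sod1, the cytosolic dismutase, was at 190 ± 10.6 and 181 ± 8.74 CPM and was not called (adjusted p = 0.244, edgeR). Sod3, the extracellular dismutase, had 0 reads in all 6 libraries, which allows a level of up to 0.0201 CPM in mock and 0.0690 CPM in p140Cap cells over the pooled libraries (3 reads, counting error only).

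The glutathione peroxidases split by gene. Gpx4, which reduces lipid hydroperoxides in membranes and is the main guard against ferroptosis, rose from 396, 388 and 461 CPM in the mock to 516, 533 and 561 CPM in the p140Cap libraries. Its groups did not overlap, and it changed by 0.37 log2 units (SE 0.06, adjusted p = 4.48e-05, edgeR). Gpx1, the general cytosolic enzyme, went the other way, from 134 ± 5.67 to 107 ± 4.38 CPM (SD, n = 3 each; log2 fold change -0.32, adjusted p = 2.63e-05, edgeR). Gpx2, the epithelial isoform, was at 525 ± 12.9 and 507 ± 37.8 CPM and was not called (adjusted p = 0.429, edgeR). Gpx3, the plasma enzyme, had 8 reads over the mock and 1 over the p140Cap libraries, a level 2.32 times as high in mock as in p140Cap cells, where the exact 95% interval for counting error runs from 0.312 to 103.

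The largest changes of the set were found in the glutathione transferases, where 9 of 9 were called, 5 higher and 4 lower. Over all genes tested 71.1% were called, 35.2% higher and 35.9% lower. Gsto1 (ENSMUSG00000025068; chromosome 19, 47854973 to 47864790, plus strand), an omega-class enzyme that works as a thiol reductase and in arsenic metabolism, was at 125, 133 and 126 CPM in the mock and at 43.2, 36.7 and 40.8 CPM in the p140Cap libraries. Its level fell to 0.315 of that in mock cells, or -1.67 on the log2 scale (SE 0.06, adjusted p = 1.12e-12, edgeR). An annotated gene, Cfap43, overlaps it on the other strand. Gsta4 (ENSMUSG00000032348; chromosome 9, 78191966 to 78209349, plus strand), which conjugates the lipid peroxidation product 4-hydroxynonenal, was at 154, 158 and 152 CPM and at 99.9, 87.5 and 96.1 CPM. Gstp1 (ENSMUSG00000060803; chromosome 19, 4035411 to 4037912, minus strand), the pi-class enzyme, was at 120, 127 and 133 CPM and at 81.0, 86.6 and 82.9 CPM. No library of these 3 genes overlapped with the other group, and the log2 fold changes of Gsta4 and Gstp1 were -0.71 and -0.60 (SE 0.05 each, adjusted p = 4.33e-09 and 2.82e-08, edgeR). The microsomal Mgst1 fell less, from 714 ± 14.8 to 603 ± 47.1 CPM (SD, n = 3 each; log2 fold change -0.25).

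**Figure D2:**
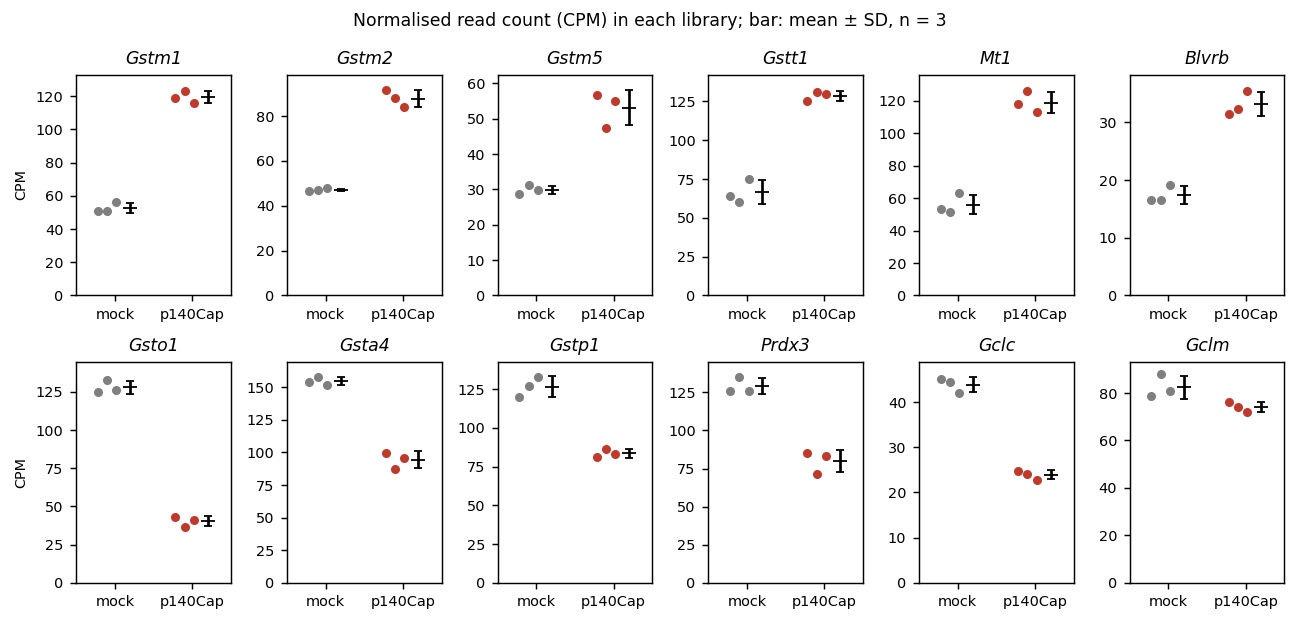
Normalised read count (CPM, vertical axes starting at 0) of 12 members in each library, with 3 mock points in grey, 3 p140Cap points in red and a bar for mean ± SD beside each group. In the upper row the p140Cap libraries lie above the mock libraries for Gstm1, Gstm2, Gstm5, Gstt1, Mt1 and Blvrb, and in the lower row they lie below them for Gsto1, Gsta4, Gstp1, Prdx3 and Gclc, with a small gap for Gclm.

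Against these, the mu-class transferases rose together. Gstm1 (ENSMUSG00000058135; chromosome 3, 108012250 to 108017973, minus strand) was at 50.6, 51.1 and 56.4 CPM in the mock and at 119, 123 and 116 CPM in the p140Cap libraries, 2.26 times the mock level (log2 fold change 1.18, SE 0.05, adjusted p = 1.47e-11, edgeR). Gstm2 (ENSMUSG00000040562; chromosome 3, 107981702 to 107986420, minus strand) was at 46.5, 46.9 and 47.7 CPM and at 91.5, 87.9 and 83.9 CPM. Gstm5 (ENSMUSG00000004032; chromosome 3, 107895854 to 107898685, plus strand) was at 28.8, 31.1 and 29.8 CPM and at 56.7, 47.4 and 55.1 CPM. Every p140Cap library was above every mock library for the 3 genes, and the log2 fold changes of Gstm2 and Gstm5 were 0.90 (SE 0.05) and 0.83 (SE 0.07). These genes lie in a cluster of 7 Gstm genes between 107895854 and 108045179 on chromosome 3. The other members of the cluster were looked at after these values were seen. Gstm4 was at 12.6 ± 0.892 and 27.9 ± 0.935 CPM, Gstm6 at 0.889 ± 0.142 and 3.61 ± 0.658 CPM and Gstm7 at 2.95 ± 0.0805 and 6.65 ± 1.14 CPM (SD, n = 3 each), while Gstm3 had too few reads for the test. All 6 tested Gstm genes were called higher, beside 35.2% of all genes tested. The coding sequences of mu-class genes are alike, and the sources used here do not give how reads that fit several of them were assigned, so the split of reads among them is uncertain. The 25 tested genes of other families within 1 Mb of the cluster had a median log2 fold change of 0.03, with 8 called higher and 7 lower.

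Gstt1 (ENSMUSG00000001663; chromosome 10, 75783813 to 75798584, minus strand), the theta-class enzyme, rose as well, from 64.0, 60.2 and 75.3 CPM in the mock to 125, 131 and 130 CPM in the p140Cap libraries (log2 fold change 0.95, SE 0.07, adjusted p = 2.26e-09, edgeR). The groups were well separated, although the mock libraries spread more than the p140Cap libraries. Mgst3, a microsomal enzyme of low abundance, was at 10.6, 10.6 and 12.5 CPM in the mock and at 13.3, 13.6 and 17.4 CPM in the p140Cap libraries, a change of 0.40 log2 units (SE 0.10, adjusted p = 0.0023, edgeR).

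The metallothionein genes lie side by side on chromosome 8 but were used very differently by TuBo cells. The letters of the metal response element (MRE, searched as TGCACNC and TGCGCNC on both strands) were found in the windows of both genes, and in those of 9 of 34 members (26.5%) beside 28.2% of all genes. Mt1 (ENSMUSG00000031765; 94178883 to 94180327, plus strand) was at 53.5, 51.7 and 63.1 CPM in the mock and at 118, 126 and 113 CPM in the p140Cap libraries. Without overlap between the groups, its level was 2.13 times that of mock cells (log2 fold change 1.09, SE 0.07, adjusted p = 4.99e-10, edgeR). Mt2 (ENSMUSG00000031762; 94172618 to 94173567, plus strand) had 3, 1 and 0 reads in the mock and 1, 0 and 0 reads in the p140Cap libraries, against 4095, 2057 and 2101 and 1790, 1846 and 1542 reads of Mt1. Mt2 was too low for the test, and the pooled ratio of mock to p140Cap cells, 1.16, came with an exact 95% interval from 0.115 to 57.2. The log2 ratio of Mt1 to Mt2 within a library was 10.88 ± 1.01 in mock and 11.22 ± 0.88 in p140Cap cells (SD, n = 3 each; difference 0.34, exact two-sided permutation p = 0.9). It rests on the 5 reads of Mt2 in all, and in the 3 libraries with 0 reads of Mt2 it is set by the 0.5 reads added. The difference was 0.07 with 1 read added in place of 0.5, and it lay between -0.01, without mock replicate 1, and 0.91, without mock replicate 3, so no direction is read from it.

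To compare abundance between genes, CPM was divided by the length in kb of the Ensembl canonical transcript. On this scale Mgst1 was the most abundant member in mock cells, at 598 ± 12.4 CPM per kb (SD, n = 3), followed by Gpx2 at 494 ± 12.1, Txn1 at 454, with the SD drawn in the plot of levels, and Gpx4 at 433 ± 41.4. The level of Txn1 lies within 1 SD of that of Gpx4. In p140Cap cells Gpx4 stood first, at 560 ± 23.7 CPM per kb, ahead of Mgst1 at 505 ± 39.5 and Gpx2 at 477 ± 35.6, while Txn1 was at 325 ± 19.4. The SD ranges of Gpx4 and Mgst1, and of Mgst1 and Gpx2, overlap in p140Cap cells. The median over the 37 tested members was 38.2 CPM per kb in mock cells, beside 10.7 over all tested genes with a length, and 15 members were among the top 10% of these genes. At the lower end, Hmox1 was at 3.56 ± 0.274, Slc7a11 at 1.09 ± 0.0600 and Nqo1 at 0.215 ± 0.0373 CPM per kb in mock cells.

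**Figure D3:**
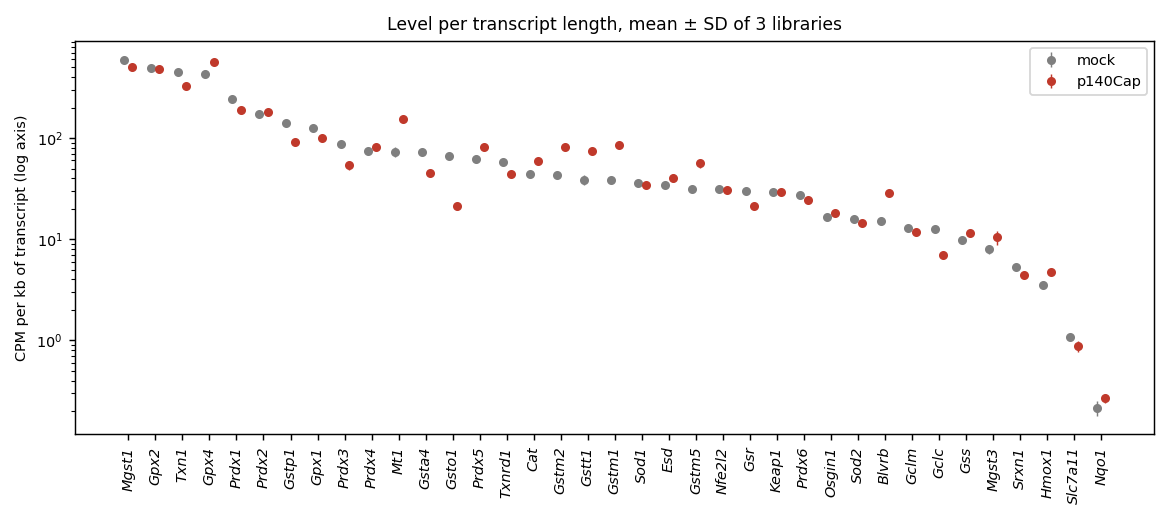
Level of the 37 tested members per kb of canonical transcript (log axis, mean ± SD of 3 libraries, mock in grey and p140Cap in red), ordered by the mock level. The levels span from 598 CPM per kb for Mgst1 to 0.215 for Nqo1 in mock cells, and Gsto1, at 0.315 of its mock level, and Gstm1, at 2.26 times its own, show the widest gaps between the groups.

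Position on the chromosome was compared because genes of chromosome 19 were lower as a whole in p140Cap cells, with a median log2 fold change of -0.34 over 424 tested genes beside 0.01 over the other chromosomes. The 4 members on chromosome 19 are Gsto1, Gstp1, Prdx3 and Prdx5, of which 3 were lower and 1, Prdx5, was higher. The tested genes within 1 Mb of Gsto1 had a median of -0.69 (10 genes, 8 called lower), those around Gstp1 -0.27 (50 genes), those around Prdx3 -0.21 (10 genes) and those around Prdx5 -0.29 (48 genes). Gsto1 thus fell in a stretch where its neighbours also fell, and Prdx5 rose in a stretch where 31 of 48 neighbours were called lower. The part of the chromosome in the changes of these genes was not tested. Without them, 13 members were higher and 13 lower, and the median of the 33 others was 0.01. Gclc and Gsta4, both lower, lie 397 kb apart on chromosome 9, and the 8 tested genes within 1 Mb of each had a median of -0.14, the other gene of the pair included. Around Mt1, Gstt1 and Blvrb the medians were -0.06, 0.10 and 0.14.

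**Figure D4:**
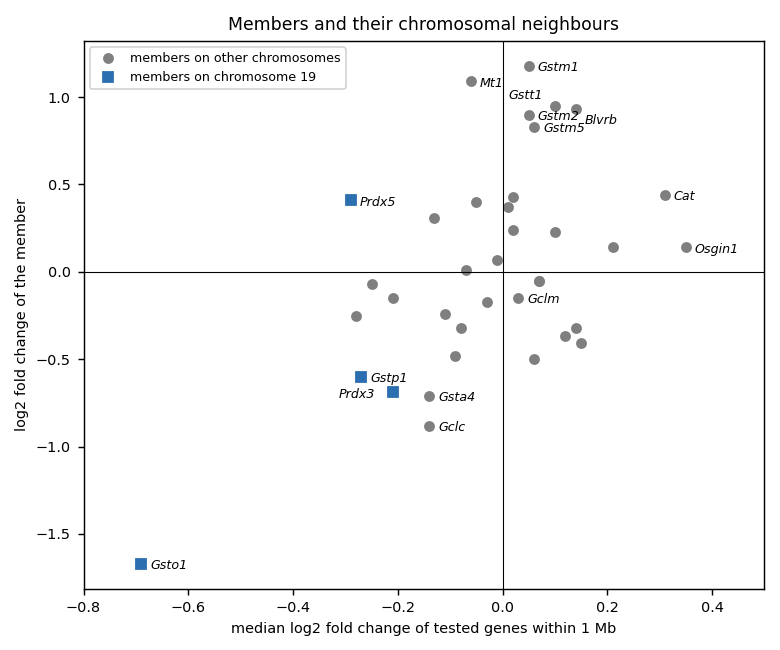
Log2 fold change of each tested member (vertical axis) against the median log2 fold change of the tested genes within 1 Mb of it (horizontal axis), with the 4 members on chromosome 19 as blue squares. Gsto1 stands at -1.67 with neighbours at -0.69, Prdx5 at 0.41 with neighbours at -0.29, and the members at the top (Gstm1, Mt1, Gstt1, Blvrb) have neighbours between -0.06 and 0.14.

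The promoter letters were then set beside the changes. Of the 9 members with an ARE core in the window, 8 were tested, of which 5 were lower (Gclm, Txnrd1, Srxn1, Prdx1 and Mgst1), 1 was higher (Gstm5) and 2 were not called (Nfe2l2 and Sod1). Over all genes tested 35.9% were lower and 35.2% higher, and the call of Gclm was lost without mock replicate 2 or p140Cap replicate 3. With 8 genes these counts are a description, and nothing particular to genes with these letters is read from them. Of all members with a window, those with a match included, 13 were higher and 12 were lower, a count that leaves out the lower Gclc, Gsr, Prdx6 and Gsta4 and the higher Hmox1.

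Other genes of the pathway were read from lists that leave out the 40 members. The counts of each list stand beside 71.1% called over all genes tested, 35.2% higher and 35.9% lower. Of 14 regulators of NRF2, 13 were tested, 6 were higher and 4 were lower, with a median log2 fold change of 0.15 beside 0.00 over all genes tested. Nfe2l3, a relative of NRF2, rose from 1.12 ± 0.117 to 4.50 ± 0.667 CPM (SD, n = 3 each; log2 fold change 1.97, adjusted p = 2.27e-08, edgeR), Bach2, a repressor that competes for MAF-binding sites, rose with a log2 fold change of 1.05, and Dpp9, a peptidase, fell with one of -0.71. Without mock replicate 2 or without p140Cap replicate 1, 2 of the regulators were lower in place of 4. Of 20 further NRF2 target genes, 12 were tested, 6 were higher and 4 were lower, and the median was 0.12 (0.00 without a filter on low counts). Akr1b10, Slc48a1 and Ephx1, an aldo-keto reductase, a heme transporter and the microsomal epoxide hydrolase, rose most, with log2 fold changes of 0.73, 0.70 and 0.67.

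Genes that supply NADPH, the electron source of both the glutathione and the thioredoxin system, moved in both directions, with 3 of 11 higher and 4 lower and a median of 0.00. Me1, the cytosolic malic enzyme, rose from 789 ± 14.2 to 1331 ± 29.5 CPM (SD, n = 3 each; log2 fold change 0.75, adjusted p = 3.65e-10, edgeR), Pgd of the pentose phosphate pathway fell from 114 ± 4.92 to 71.6 ± 5.06 CPM, and Idh1 rose from 109 ± 1.34 to 144 ± 7.18 CPM. Among 17 further thioredoxin and glutaredoxin genes, 5 were higher and 8 were lower, with a median of -0.16. Txnip, which binds thioredoxin and blocks its reducing activity, was at 44.8 ± 4.77 CPM in mock and 161 ± 7.38 CPM in p140Cap cells (SD, n = 3 each; log2 fold change 1.85, adjusted p = 1.06e-12, edgeR), while Txn1 and Txnrd1 fell as given above. The methionine sulfoxide reductases Msrb3 and Msrb1 moved apart, with log2 fold changes of -1.32 and 0.69.

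Of 22 further transferases, peroxidases and metallothioneins, 10 were tested. Of these 5 were higher and 3 were lower, where 35.2% and 35.9% of all genes tested were. The median log2 fold change was 0.53 (0.21 over 16 genes without a filter on low counts), with Gstt2 at -1.19, Gstm7 at 1.17 and Gstm4 at 1.16 on the log2 scale. The higher genes include Gstm4, Gstm6 and Gstm7 of the cluster described above, where the split of reads is uncertain. The higher count and the median are thus not separate from the rise of that cluster. Gstt2 and Gstt1, neighbours of the theta class, moved in opposite directions, and Gstt3 of the same class was called higher. Gstt3 rose from 43.9 ± 1.07 to 69.3 ± 3.49 CPM (SD, n = 3 each; log2 fold change 0.66, adjusted p = 1.14e-08, edgeR). Of 17 genes of glutathione turnover and transport, 13 were tested, 1 was higher and 3 were lower, with a median of -0.07. Without a filter on low counts 6 were lower. Hagh, a glyoxalase, had a log2 fold change of 0.70, Chac1, which degrades glutathione, one of -0.76 (16.0 ± 1.42 and 9.38 ± 0.516 CPM), and Slc1a5, a glutamine transporter, one of -0.64. The count of higher genes in this list was 2 without mock replicate 3 and 2 without p140Cap replicate 2.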

How the data were processed

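The data are RNA-Seq read counts of TuBo cells, with 3 libraries from mock and 3 from p140Cap cells. The authors prepared stranded, poly(A)-selected Illumina libraries, sequenced them on an Illumina NextSeq instrument and deposited counts, whole numbers of reads per gene for 21960 genes with no normalization. The submitters' processing notes name STAR 2.5, RSEM 0.1.1 and the build mm10, without their roles. The sources used here do not give whether the counts are rounded RSEM estimates or whether strand was used in counting.

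Counts were analysed in R 4.3.3 with edgeR 4.0.16 (TMM factors, filterByExpr by group, quasi-likelihood test of p140Cap against mock with no covariate, Benjamini-Hochberg threshold 0.05). The SE of a log2 fold change was taken as its size divided by the square root of F. The scripts were tested on simulated data. Alternatives were DESeq2 1.42.0, RLE factors, TMM factors without chromosome 19, no filter, limma-voom (limma 3.58.1), a minimum of 10 reads in each library, thinning to the smallest library, each library left out and the replicate number as a block. The count without members on chromosome 19 was added after seeing the data.

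Members and lists were chosen with earlier results of these data known. Values by library are given for the 11 members called with an absolute log2 fold change of at least 0.5 (all with mean log2 CPM over 1), and for 12 genes fixed by name (Nfe2l2, Keap1, Nqo1, Hmox1, Gclc, Gclm, Slc7a11, Txnrd1, Srxn1, Gpx4, Mt1 and Mt2), and Txn1 and Mgst3 were added after their values were seen. In each further list the 3 called genes with the largest absolute change and a mean log2 CPM of at least 1 are named. Positions are from RefSeq for GRCm38.p6, the assembly of mm10, by symbol. Overlapping genes, exon lengths and chromosomes are from GENCODE for GRCm39 and were matched through Ensembl identifiers for 98.6% of the genes. Nothing in the sources states whether replicates came from separate cultures, so p-values measure the spread between these libraries. No 2 libraries of a group agreed within sampling noise (mean chi-square 1.75 to 10.7, where noise alone gives about 1). Intervals cover counting error only.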

Additional observations from a re-analysis of the deposited data

How the results depend on the processing

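Of the 37 tested members, 32 kept their side of the threshold under every alternative that tested them, and 5 did not (Gclm, Slc7a11, Prdx4, Sod2 and Osgin1, with values in the report). Over the 14 alternatives 13 or 14 members were higher and 15 or 16 lower. The direction turned under an alternative for Keap1, which was not called, in 5 of the 14 (log2 fold changes from -0.05 to 0.04), and for no other tested member. The counts of the further lists depended more on the setting. The count of lower genes was another under 8 of the 14 alternatives for NADPH supply (3 in place of 4) and under 9 for the further thioredoxin and glutaredoxin genes (6 or 7 in place of 8), while both counts of the further NRF2 targets were the same under all 14. Without a filter on low counts the median log2 fold change was 0.00 for the further NRF2 targets (0.12 with the filter) and 0.21 for the further transferases and peroxidases (0.53 with the filter), and 6 genes of glutathione turnover were lower. With at least 10 reads in every library the median of the further transferases and peroxidases was 0.65. Among the additional lower calls in glutathione turnover, Ggt1 was not tested with the filter, and Ggct was tested and not called with it (adjusted p = 0.0896 with the filter and 0.0341 without, edgeR). The median log2 fold change of all genes tested was -0.06 without the filter and 0.00 with it. The cause of these moves was not tested. In the list of glutathione turnover 2 genes were higher with DESeq2, with limma-voom and with thinned libraries, and the cause was not tested. With each library left out in turn, between 1 and 2 genes of that list were higher, and between 2 and 4 regulators of NRF2 were lower. The difference between p140Cap and mock cells in the log2 ratio of Mt1 to Mt2, 0.34 with all libraries, lay between -0.01 and 0.91 with a library left out and reversed to -0.01 without mock replicate 1, which holds 3 of the 5 reads of Mt2. With the replicate block 13 members were higher and 16 lower, and Prdx4 was the member whose call changed (adjusted p = 0.0858, edgeR, within a range of 0.00269 to 0.266 over its alternatives). To look for pairing, the mean log2 CPM of its group was subtracted from each library. These deviations correlated at -0.106 to -0.0299 between mock and p140Cap libraries of the same number. For libraries of different numbers the correlations were -0.0282 to 0.0801, so the numbers did not pair the libraries. The lower depth of the p140Cap libraries limits what can be said of Nqo1, Gpx3, Mt2 and Sod3.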
